A study of Mus musculus with 5 samples.

Results

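The 10 genes described here encode enzymes of glycolysis and were followed through H3K14ac profiles of blood stem and progenitor cells from controls and from knockouts of the acetyltransferase HBO1. The set held Hk1, Hk2, Pfkl, Aldoa, Tpi1, Gapdh, Pgk1, Pgam1, Pkm and Ldha, that is 10 of the 27179 genes counted. They were chosen by name with the differences between knockout and control counts of these same libraries in view, so the difference between the groups at these 10 genes is given as a description and not as a test. H3K14ac is the acetylation of lysine 14 of histone H3, and HBO1, the product of Kat7, is an enzyme that places it. CUT&Tag reads it out by tethering a transposase to an antibody, so that DNA beside the mark is cleaved and given adapters. The libraries came from LSK cells of male C57BL/6 bone marrow, which lack lineage markers and carry Sca-1 and Kit, a fraction rich in stem and early progenitor cells. Both groups carried Mx1-cre, which is switched on by interferon and so acts in any interferon-responsive cell, and both received poly(I:C) to induce it. The 2 control libraries were labelled Hbo1def/+; T/+ and the 2 knockout libraries Hbo1def/def; T/+, so the controls also carried 1 def allele, and T/+, which the labels do not explain, was shared by all. Nothing in the labels ties the 2 libraries of a group to different mice. The p-values below therefore reflect the spread between these libraries, which may be technical.

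Glycolysis splits glucose into pyruvate in the cytosol and yields ATP without oxygen. Hexokinases trap glucose as glucose 6-phosphate, phosphofructokinase commits it to the pathway, aldolase and triose phosphate isomerase make and interconvert the triose phosphates, and the later enzymes (GAPDH, phosphoglycerate kinase, phosphoglycerate mutase, enolase and pyruvate kinase) recover ATP, after which lactate dehydrogenase turns pyruvate into lactate. Quiescent blood stem cells are known for a strong reliance on this pathway. H3K14ac is usually found around the start sites and over the bodies of active genes; a level of the mark is not a level of RNA.

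Reads were counted over the 5 kb upstream of the start, over the gene body and over the 5 kb downstream of the end. Gene body counts summed to 12386891 and 10572534 in the controls and to 4723549 and 6031189 in the knockouts, whereas upstream counts ranged from 869859 to 1164409. All levels below are CPM (counts scaled to a common library size) of a region class, scaled by TMM, so they show a gene's share of the mark among genes; a change in the total amount of the mark cannot be seen on this scale. In bulk samples, fewer cells with the mark and less of it per cell cannot be told apart. Kat7 itself had gene body levels of 30.7 and 30.1 CPM in the controls and 88.2 and 39.1 CPM in the knockouts, but counts of a histone mark over a gene do not check a deletion in it. The summed gene body level per kb of 8 stem and LSK marker genes was 15.1 and 14.2 CPM in the controls and 17.0 and 14.8 in the knockouts. For 11 markers of cells that the LSK gate leaves out it was 18.0 and 16.1 against 13.3 and 13.2, with Ms4a1 and Hba-a1 at 0 in all 4 libraries. All 11 had enough reads to be tested both upstream and downstream. The body counts of 0 at these 2 genes are therefore not read as absence of the mark or of such cells, and how they arose was not tested. For 7 markers of stroma and endothelium the summed level was 9.81 and 8.07 against 5.91 and 6.45. The levels of the last 2 marker lists moved with the groups, and their part in the results was not tested; for the stem and LSK markers, knockout replicate 2 lay between the controls.

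The start sites of the 10 genes are shown first because the genes differ there in CpG content, and because the mark gathers around starts. RefSeq annotates 15 promoter windows for the 10 genes on GRCm38.p6, here the 250 bases before each start. All 10 genes were matched. Among 32851 such windows of the genome the median CpG ratio (observed over expected CpG) was 0.37, with a median of 6 CpGs, and 34.0% reached a ratio of 0.6. The windows below belong to the 4 genes with the largest gene body differences and to 2 genes, Hk2 and Pfkl, that did not pass the threshold over the body; they run 5′ to 3′ on the gene's strand, and capitals mark CG dinucleotides. Pgam1 (chr19:41911621-41911870, plus strand) holds 22 CpGs at a ratio of 0.86, and Aldoa (chr7:126799255-126799504, minus strand, before its inner start) holds 21 at 0.74. Tpi1 (chr6:124814159-124814408, minus strand) holds 13 at 0.63, and Gapdh (chr6:125165774-125166023, minus strand, also before an inner start) holds 8 at 0.42. Hk2 (chr6:82774455-82774704, minus strand) holds 25 at 0.85, and Pfkl (chr10:78009808-78010057, minus strand) holds 13 at 0.60.
Pgam1: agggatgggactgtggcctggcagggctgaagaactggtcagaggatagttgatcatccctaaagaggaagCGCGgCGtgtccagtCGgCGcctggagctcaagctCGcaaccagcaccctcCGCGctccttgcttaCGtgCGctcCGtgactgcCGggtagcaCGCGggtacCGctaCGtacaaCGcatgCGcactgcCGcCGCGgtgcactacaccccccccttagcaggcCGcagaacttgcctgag
Aldoa: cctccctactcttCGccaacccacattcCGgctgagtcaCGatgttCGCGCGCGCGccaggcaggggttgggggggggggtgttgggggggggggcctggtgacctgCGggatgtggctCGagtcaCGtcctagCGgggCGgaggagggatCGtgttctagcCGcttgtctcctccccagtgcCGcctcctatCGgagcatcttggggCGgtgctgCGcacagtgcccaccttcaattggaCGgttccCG
Tpi1: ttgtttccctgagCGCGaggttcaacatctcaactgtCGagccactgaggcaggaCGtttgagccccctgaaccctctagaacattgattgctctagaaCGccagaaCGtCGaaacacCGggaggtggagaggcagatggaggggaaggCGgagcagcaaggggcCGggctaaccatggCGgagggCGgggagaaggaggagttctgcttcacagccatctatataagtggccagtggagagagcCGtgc
Gapdh: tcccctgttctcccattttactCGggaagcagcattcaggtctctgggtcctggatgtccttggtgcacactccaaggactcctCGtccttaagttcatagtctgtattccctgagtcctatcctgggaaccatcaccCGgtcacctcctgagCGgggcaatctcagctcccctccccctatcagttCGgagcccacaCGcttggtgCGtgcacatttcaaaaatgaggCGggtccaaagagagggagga
Hk2: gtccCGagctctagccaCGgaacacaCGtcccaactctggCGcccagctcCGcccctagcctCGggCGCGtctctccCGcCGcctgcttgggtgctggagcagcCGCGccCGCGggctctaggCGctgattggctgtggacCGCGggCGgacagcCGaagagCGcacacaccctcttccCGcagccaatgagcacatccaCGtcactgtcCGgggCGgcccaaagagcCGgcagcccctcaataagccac
Pfkl: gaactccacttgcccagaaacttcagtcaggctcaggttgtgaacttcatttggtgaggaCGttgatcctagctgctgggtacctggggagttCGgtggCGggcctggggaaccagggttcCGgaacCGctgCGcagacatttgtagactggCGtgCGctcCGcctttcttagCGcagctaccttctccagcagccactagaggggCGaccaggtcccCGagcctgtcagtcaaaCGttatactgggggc
The CpG-dense windows include genes on both sides of the threshold. The letters ACGTG, the core of hypoxia response elements, were searched on both strands and stood in 7 of the 15 windows, from 6 of the 10 genes, against 16.6% of all windows. Hk2 held 2 matches and Pgam1 and Aldoa 1 each, while the printed Tpi1, Gapdh and Pfkl windows held 0. CACGTG, the E-box palindrome, which contains ACGTG, stood in 1 member window, at Ldha, against 6.02% of all windows. GGGCGG, the GC box, stood in 7 windows against 32.7%, and CCAAT in 5 against 33.8%. These are matches of letters, not binding sites. Each of these motifs but the last contains a CpG, and every window printed above holds more CpGs than the median of 6. The shares of all windows are therefore not a like background. No share was taken among windows of similar CpG content, so no enrichment is read from these counts. Aldoa's hypoxia element match lies where 2 of its windows overlap, and both are counted among the 7.

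Over gene bodies the knockout libraries held more H3K14ac than the control libraries at all 10 genes, with no overlap between the groups, and 7 of the 10 passed the threshold (edgeR adjusted p under 0.05 over all 21393 gene bodies tested). The 7 were Aldoa, Tpi1, Gapdh, Pgk1, Pgam1, Pkm and Ldha, which act from the aldolase step down to lactate. The 3 that did not pass were Hk1, Hk2 and Pfkl, the enzymes of the upper steps within this set. Gpi1 and Pfkp, upper-step genes outside the set, did pass over the body, so no split of the pathway is read from this. The median log2 difference of the 10 genes, knockout minus control, was 2.39 (range 0.38 to 4.25), and the median over all gene bodies was 0.02. Among all gene bodies tested 23.1% were called higher and 15.2% lower, and 40.6% had both knockouts above both controls, 39.4% both below. Because the genes were chosen with this contrast known, their count is not read against that share.

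**Figure D1:**
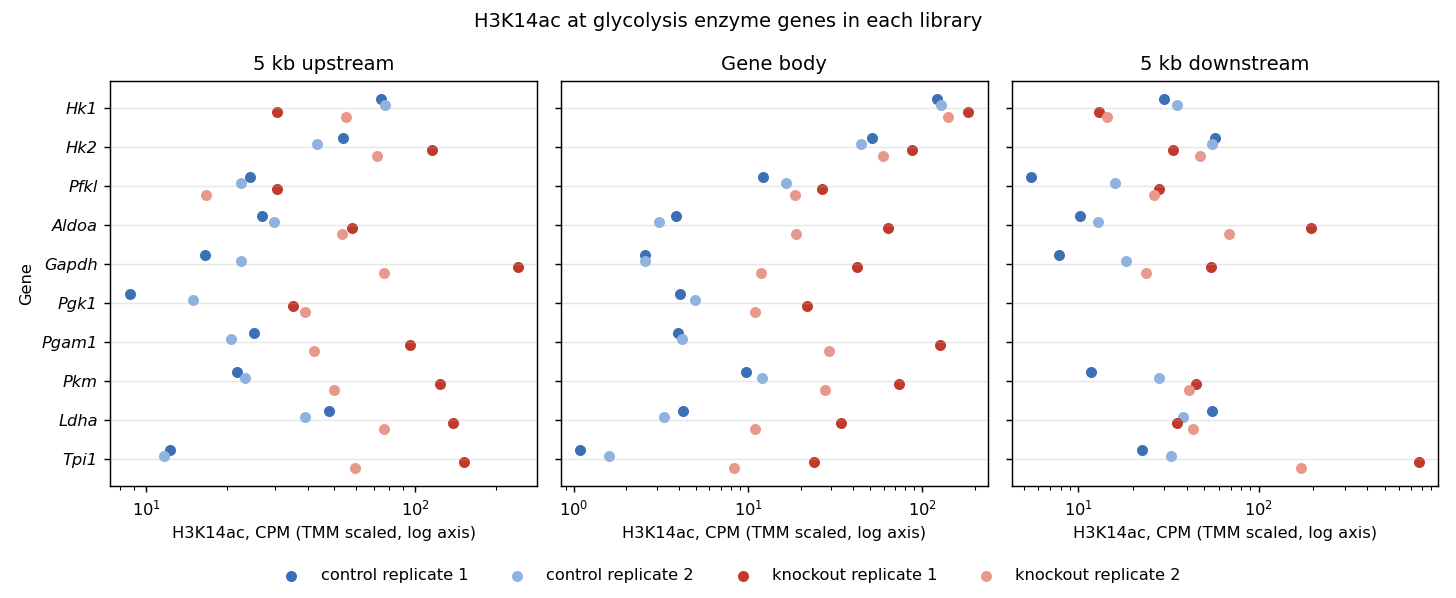
H3K14ac in CPM (log axis) at each of the 10 genes (rows) in the 3 region classes, 1 point per library; control replicates are blue and knockout replicates red. Over gene bodies both red points lie to the right of both blue points for every gene, and Pgk1 and Pgam1 have no downstream points because their counts were too low to test.

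Hexokinase starts the pathway, and its 2 genes here gave small differences over their long bodies. Hk1 (chr10:62268855-62379908, minus strand, Entrez 15275) had gene body levels of 121 and 128 CPM in the controls and 184 and 140 CPM in the knockouts, a log2 difference of 0.38 ± 0.29 (SE). Hk2 (chr6:82725025-82774454, minus strand, Entrez 15277) had 51.6 and 44.3 CPM against 87.3 and 59.2, a log2 difference of 0.61 ± 0.30. In both genes the knockouts lay above the controls without passing the threshold. Pfkl, the liver-type phosphofructokinase (chr10:77986947-78009807, minus strand, Entrez 18641), had 12.1 and 16.6 CPM against 26.6 and 18.6, a log2 difference of 0.66 ± 0.38. Its lower knockout library was close to its higher control library.

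Aldolase A and triose phosphate isomerase act next, where the sugar is cut into triose phosphates. Aldoa (chr7:126795234-126800447, minus strand, Entrez 11674) had gene body levels of 3.85 and 3.07 CPM in the controls and 63.8 and 18.8 CPM in the knockouts, an 11.8-fold difference (log2 3.57 ± 0.43). Tpi1 (chr6:124810586-124814158, minus strand, Entrez 21991) had 1.09 and 1.58 CPM, from 11 and 16 reads, against 23.9 and 8.35 CPM, from 129 and 56 reads, an 11.9-fold difference (log2 3.57 ± 0.55). The 2 genes thus differed by nearly the same factor, Tpi1 from far fewer reads.

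The lower part of the pathway recovers ATP, and it held both the largest of the 10 differences and, at Pgk1, the smallest of those that passed. Gapdh, glyceraldehyde 3-phosphate dehydrogenase (annotated at chr6:125161852-125166467, minus strand, Entrez 14433), had 2.57 and 2.57 CPM in the controls and 42.0 and 11.8 CPM in the knockouts (log2 3.37 ± 0.48). Its deposited length of 3732 bp matched neither annotated span, so where its 3 counted regions begin and end is uncertain, and its inner start may lie in the upstream window. Pgk1, phosphoglycerate kinase (chrX:106187100-106203699, plus strand, Entrez 18655), had 4.05 and 4.95 CPM against 21.8 and 10.9 CPM (log2 1.85 ± 0.47). Pgam1, phosphoglycerate mutase (chr19:41911871-41918665, plus strand, Entrez 18648), had 3.95 and 4.16 CPM against 126 and 29.2 CPM, from 40 and 42 reads against 682 and 196. Its 19.0-fold difference (log2 4.25 ± 0.41) was the largest of the 10 genes. Its CpG-dense start, with 22 CpGs in the window printed above, lies directly before the counted body.

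Pyruvate kinase and lactate dehydrogenase close the pathway. Pkm (chr9:59656576-59679372, plus strand, Entrez 18746) had 9.78 and 12 CPM over its body in the controls and 73.2 and 27.6 CPM in the knockouts, a 4.62-fold difference (log2 2.21 ± 0.36). Ldha (chr7:46845804-46855627, plus strand, Entrez 16828) had 4.25 and 3.27 CPM against 34.0 and 11.0 CPM, a 5.95-fold difference (log2 2.57 ± 0.46). In both genes the lower knockout library was still well above the higher control library.

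Knockout replicate 1 was above knockout replicate 2 over all 10 gene bodies, by 1.32-fold at Hk1 up to 4.32-fold at Pgam1. This was so for 98.7% of all gene bodies called higher, with a median ratio of 1.98, and for 50.3% of all gene bodies tested. The size of each difference therefore rests in part on that library. Without knockout replicate 1 the log2 differences were 2.88 for Pgam1, 2.66 for Tpi1, 2.47 for Aldoa, 2.22 for Gapdh, 1.59 for Ldha, 1.37 for Pkm and 1.30 for Pgk1, and the 7 calls held. Pgk1 was the 1 gene of the 7 to miss the threshold when a library was left out, at 1.71 without control replicate 1. Several of these genes have pseudogene copies that could take or lend reads, which makes their counts less certain. By description 7 were annotated for Tpi1, 3 each for Ldha and Pgk1, and 2 each for Gapdh, Aldoa and Pgam1. For Hk1, Hk2, Pfkl and Pkm 0 were found this way. Copies whose description does not name the gene are missed, so these numbers do not rank the genes.

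Levels per kb were also ranked within each library, which needs no scaling between libraries. A percentile here is the share of tested gene bodies in 1 library with a lower level per kb. In the controls the 10 genes were ordinary or low. Their median level was 0.612 CPM per kb against 0.856 for all gene bodies, and 2 of 10, Hk1 and Hk2, had a mean percentile above 50. In the knockouts the median level was 2.24 CPM per kb against 0.966, and 9 of 10 had a mean percentile above 50. The tested markers of cells that the LSK gate leaves out had a median of 1.63 CPM per kb in the controls, and the stroma and endothelium markers 1.05. Both lay above the 10 genes there, so a control rank per kb is not read as a rank of gene activity. In the knockouts these medians were 1.22 and 0.776, below the 10 genes. The reason was not tested. Pgam1 stood at percentiles 37.2 and 35.5 in the controls and at 99.5 and 98.6 in the knockouts. Aldoa moved from 45.2 and 33.7 to 98.9 and 98.0, Gapdh from 42.8 and 40.6 to 98.7 and 97.4, and Tpi1 from 17.2 and 20.9 to 97.0 and 94.3. These 4 genes were among the most heavily marked gene bodies per kb in both knockout libraries and in neither control library.

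None of the other 6 genes came as high in both knockout libraries. Pkm went from 27.6 and 28.5 to 91.6 and 66.9, and Ldha from 28.2 and 12.8 to 92.7 and 62.5. Pgk1, on the X chromosome, was the lowest of the 10 in the controls, at percentiles 12.9 and 10.1, and its knockout libraries lay far apart, at 70.2 and 28.1. Hk1, at 58.8 and 64.0, and Hk2, at 57.2 and 52.3, led the 10 genes in the controls and reached 79.0 and 70.4, and 80.9 and 66.8, in the knockouts. Pfkl had overlapping ranks, 34.2 and 42.8 in the controls against 64.0 and 40.8. In the controls the level per kb was 1.12 ± 0.0424 CPM (SD, n = 2) for Hk1 and 0.97 ± 0.103 for Hk2, the top of the order, then 0.689 for Gapdh, 0.664 for Aldoa, 0.628 for Pfkl and 0.597 for Pgam1, which lay close together. The Gapdh value uses its deposited length. With the annotated length it was 0.557, below Aldoa, Pfkl and Pgam1. In the knockouts the order had turned. Pgam1 stood at 11.4 ± 10.1, Aldoa at 7.92 ± 6.11, Gapdh at 7.2 ± 5.72 and Tpi1 at 4.35 ± 2.96. These SDs hold the gap between the knockout libraries, of which replicate 1 was the higher for each gene. Within each knockout library these genes stood in this same order. Whether neighbours in the order differ was not tested.

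**Figure D2:**
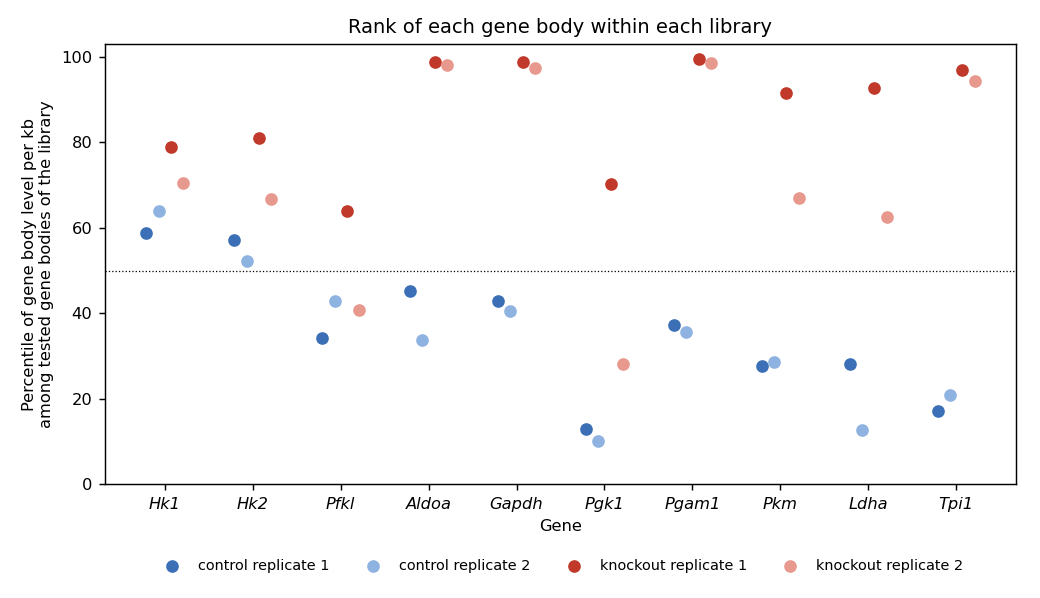
Percentile of the gene body level per kb among all tested gene bodies of the same library, for the 10 genes, 1 point per library; the dotted line marks 50. Aldoa, Gapdh, Pgam1 and Tpi1 lie at 94.3 or more in both knockout libraries and at 45.2 or less in both control libraries.

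The 7 genes that passed were mostly short. All 6 genes under 20 kb passed over the body, with log2 differences from 1.85 to 4.25. Of the 4 genes of 20 kb or more only Pkm did, and their range was 0.38 to 2.21. This boundary was chosen after the values were seen. Over the 10 genes the gene body log2 difference and the logarithm of gene length had a Spearman's rho of -0.88 and a Pearson's r of -0.90; the 10 points share the same 4 libraries and are not independent replicates. Over all 21393 gene bodies the same relation was far weaker, with rho -0.19 and r -0.25, and 30.9% of gene bodies under 20 kb were called higher against 14.0% of longer ones. CpG content at the outermost start, taken here over 1001 bp around it, did not sort the 10 genes in the same way. On this wider window Tpi1 had a ratio of 0.49, against 0.63 in the 250 bases printed above. Of the 6 with a ratio of at least 0.6 (Hk2, Pfkl, Pgk1, Pgam1, Pkm and Ldha) 4 passed over the body, and of the 4 below it (Hk1, Aldoa, Gapdh and Tpi1) 3 passed. Among all gene bodies 35.9% with a CpG-rich start were called higher, against 1017 of the 10168 others. Hk1 and Aldoa have a CpG-richer start inside the body, with 14 and 21 CpGs in the 250 bases before it against 1 and 0 before the outermost start. For these 2 genes the counted body holds that inner start.

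**Figure D3:**
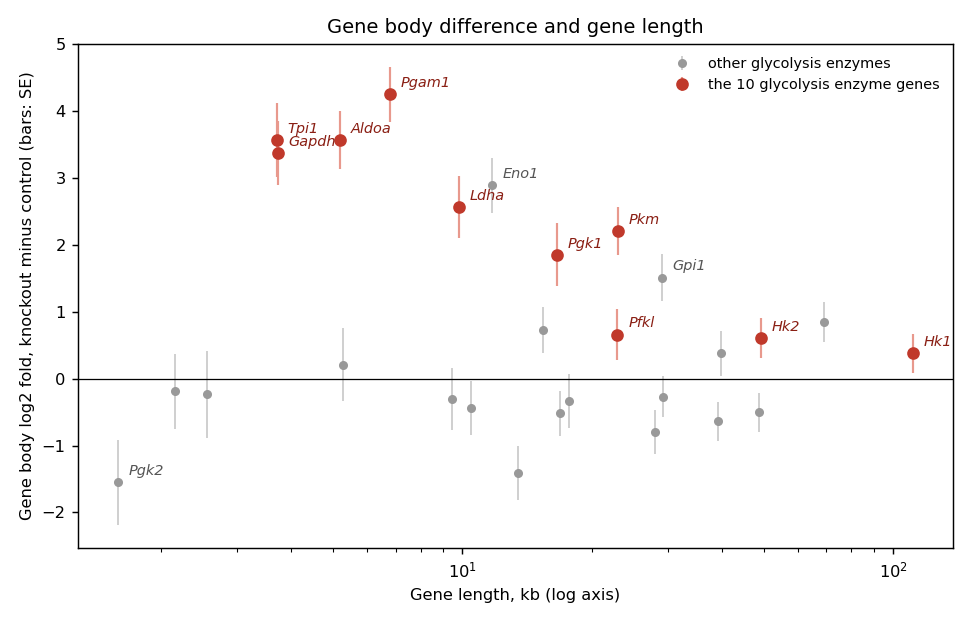
Log2 difference of gene body H3K14ac, knockout minus control (bars: SE), against gene length in kb (log axis), for the 10 genes in red and for 18 other glycolysis enzyme genes in grey. Pgam1 lies highest at 4.25 and Hk1, the longest of the 10, lowest of the red genes at 0.38; among the grey genes Eno1 stands highest, at 2.89.

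Upstream of the start, 6 of the 10 genes passed the threshold, all higher in the knockouts: Tpi1, Gapdh, Pkm, Pgk1, Pgam1 and Ldha. The median log2 difference was 1.44 (range -0.81 to 3.14) against -0.09 over all 23200 upstream regions, of which 24.0% were called higher and 14.3% lower. Both knockouts lay above both controls at 8 of the genes and below at 1, against 37.8% and 39.9% of all upstream regions. These calls depended on control replicate 1, control replicate 2 and knockout replicate 1. In edgeR none of the 6 held without control replicate 1, without control replicate 2 or without knockout replicate 1, where 1, 4 and 7 genes were higher at an unadjusted p under 0.05, and 4 genes passed without knockout replicate 2.

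Tpi1 had upstream levels of 12.2 and 11.6 CPM in the controls and 151 and 59.8 CPM in the knockouts, a log2 difference of 3.14 ± 0.54, the largest of the 10. Gapdh had 16.5 and 22.4 CPM against 240 and 76.4, a log2 difference of 3.01 ± 0.60. Pkm had 21.7 and 23.2 CPM against 123 and 49.9 (log2 1.94 ± 0.50). In all 3 genes the lower knockout library was over the higher control library by a wide margin. The windows of Tpi1, Gapdh and Hk1 overlap the neighbouring genes Usp5, Ncapd2 and Hkdc1, and that of Pkm holds the start of the long noncoding RNA gene Gm51708 at 670 bp, and marks of these neighbours are counted with theirs.

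Pgk1 had 8.68 and 14.9 CPM against 35.2 and 38.8 (log2 1.64 ± 0.51), and was the 1 gene of the 6 in which knockout replicate 1 was not the higher knockout. Pgam1 had 25.2 and 20.7 CPM against 95.5 and 42.1 (log2 1.58 ± 0.47), a far smaller difference than over its body. Ldha had 47.7 and 38.9 CPM against 138 and 76.4 (log2 1.30 ± 0.53), and its call did not hold with scaling by library totals (1.08), with the GC correction (0.91) or with the replicate block. Under the replicate block Pgam1 also missed the threshold, at 1.49.

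Aldoa and Hk2 had knockouts above controls without passing. Aldoa had upstream levels of 26.9 and 29.8 CPM against 58.0 and 53.2 (log2 0.97 ± 0.46), and Hk2 had 53.8 and 43.1 CPM against 115 and 72.0 (log2 0.95 ± 0.51). Both passed when the libraries were scaled by totals pooled over the region classes or by 1479 receptor genes. Pfkl overlapped, with 24.3 and 22.4 CPM against 30.7 and 16.6 (log2 0.02 ± 0.49). Hk1 was the single gene with lower knockouts, at 74.6 and 77.1 CPM against 30.7 and 55.4 (log2 -0.81 ± 0.49); it did not pass, and its difference was 0.06 with receptor gene scaling.

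The share of a gene's own reads that lay upstream did not move one way. Over all genes together, upstream reads were 7.86% and 8.43% of a control library and 16.5% and 11.4% of a knockout library. It is a ratio within a library and so needs no scaling. With 2 libraries against 2 there are 6 assignments of the labels, so an exact two-sided permutation test could not pass 0.05 and none is given. At Aldoa the share was 37.3% and 43.4% in the controls and 10.2% and 21.2% in the knockouts, and at Pgam1 it was 41.4% and 36.8% against 10.9% and 16.1%. For these 2 genes the added reads thus lay mainly past the outermost start, over the body and, for Aldoa, the downstream window. The shares of Hk2, Gapdh and Ldha were higher in both knockouts, from a mean of 9.29% to 15.1%, from 35.0% to 43.4% and from 34.7% to 38.3%. Hk1 had a lower share, 6.43% to 3.82%, and the other 4 genes overlapped. The median difference over the 10 genes was 0.249 percentage points, and its sign turned when single libraries were left out.

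**Figure D4:**
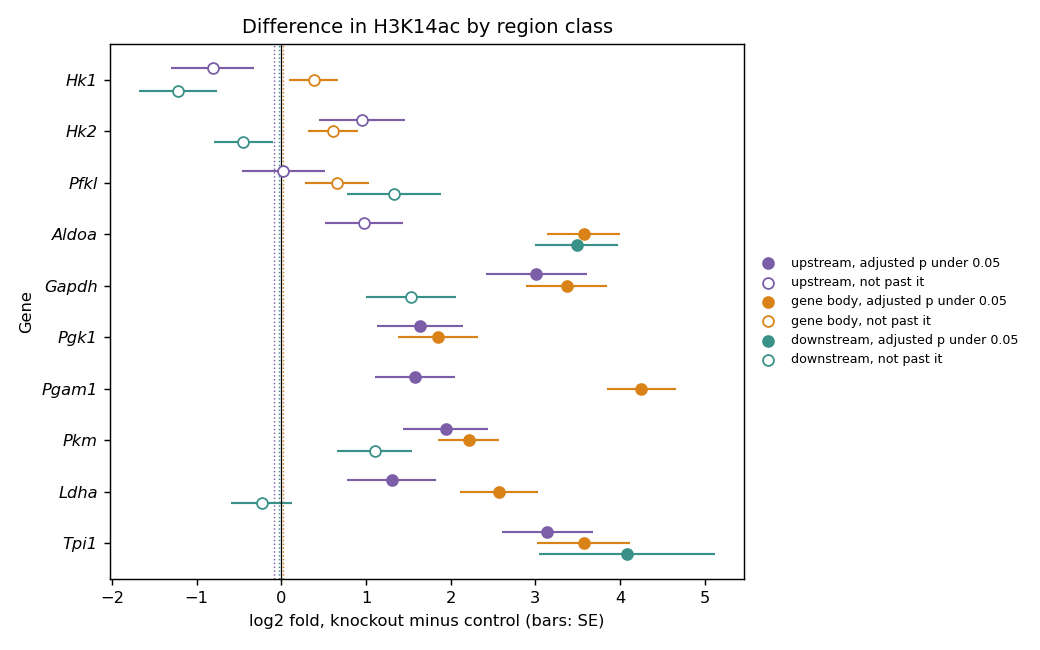
Log2 difference in H3K14ac, knockout minus control (bars: SE), at the 10 genes in each region class; filled points passed an adjusted p of 0.05 and open points did not, and dotted lines mark the median over all genes tested in each class. Aldoa and Pgam1 differ more over the body than upstream, and the downstream points spread from -1.22 at Hk1 to 4.08 at Tpi1.

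Downstream of the end, 8 of the 10 genes had enough reads to test, and 2 passed, Aldoa and Tpi1, both higher. The background was 10.8% called higher and 2.29% lower among 21566 regions. The median log2 difference of the 8 genes was 1.22 (range -1.22 to 4.08) against -0.03 for all. Pgk1, with 1, 3, 2 and 0 reads in control 1, control 2, knockout 1 and knockout 2, and Pgam1, with 1, 1, 2 and 2, were not tested. Their downstream windows overlap the neighbouring genes Taf9b and Exosc1. Whether reads in overlapping regions were left out was not tested, so these low counts are not read as absence of the mark. Both knockouts lay above both controls at 5 of the 8 and below at 2, against 29.9% and 32.7% of all downstream regions.

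Tpi1 had 22.7 and 32.7 CPM downstream in the controls and 774 and 171 CPM in the knockouts (log2 4.08 ± 1.04), and its call did not hold with receptor gene scaling (4.44), with the replicate block (3.73), without control replicate 1 (3.84) or without control replicate 2 (4.37). The downstream window of Tpi1 holds the start of Spsb2, a gene on the opposite strand that overlaps the Tpi1 3′ end. Spsb2 itself was higher in the knockouts over its body, by a log2 difference of 3.80 ± 0.60 (edgeR adjusted p = 7.43e-07), and upstream, by 3.41 ± 0.75 (edgeR adjusted p = 0.000101). Reads of these 2 genes cannot be told apart there.

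Aldoa had 10.2 and 12.8 CPM downstream against 196 and 68.6 (log2 3.49 ± 0.49). Its downstream window holds the start of Ppp4c, a protein phosphatase gene, 2677 bp past the Aldoa end. Ppp4c was higher over its body, by 2.80 ± 0.57 (edgeR adjusted p = 9.41e-05), and upstream, by 2.17 ± 0.50 (edgeR adjusted p = 0.000206). Spsb2 and Ppp4c were named for their position, after the values of Tpi1 and Aldoa were seen. For both of these windows the marks of a neighbouring start and of the gene's own end were not separated.

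The other 6 tested genes did not pass downstream. Gapdh had 7.83 and 18.4 CPM against 54.1 and 23.7 (log2 1.53 ± 0.53), Pfkl had 5.48 and 16.0 against 28.0 and 26.4 (log2 1.33 ± 0.55), and Pkm had 11.7 and 27.9 against 44.7 and 40.9 (log2 1.10 ± 0.44). All 3 had both knockouts above both controls. Ldha overlapped, with 54.8 and 38.3 CPM against 35.4 and 43.5 (log2 -0.23 ± 0.36). Hk2 had 57.1 and 55.1 CPM against 33.6 and 47.5 (log2 -0.45 ± 0.35). Hk1 had 29.7 and 35.1 CPM against 13.1 and 14.5 (log2 -1.22 ± 0.46). The 2 hexokinase genes were thus the 2 with lower knockouts downstream.

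Glycolysis has further enzyme genes, many of them isozymes of other tissues, and 19 of these were compared by the same fit. Over gene bodies 18 were tested, of which 3 were higher and 3 lower, with a median log2 difference of -0.28, against 23.1% higher and 15.2% lower of all gene bodies. Eno1, the widely expressed enolase that fills the step between phosphoglycerate mutase and pyruvate kinase, rose from 6.12 and 4.75 CPM to 60.5 and 20.4 CPM, by 2.89 ± 0.41 (edgeR adjusted p = 6.19e-08). Gpi1, the isomerase of the second step, rose by 1.51 ± 0.35 (edgeR adjusted p = 0.00057), and Pfkp, the platelet-type phosphofructokinase, by 0.85 ± 0.30 (edgeR adjusted p = 0.0202). Among the lower genes, Eno4, the enolase of sperm, had a log2 difference of -0.80 ± 0.33 (edgeR adjusted p = 0.0479), and Pgk2, the testis phosphoglycerate kinase, -1.55 ± 0.64 (edgeR adjusted p = 0.0467) with overlapping groups. Over the body Eno1 was called under every setting tried. The calls of Eno4 and Pgk2 were lost under most of them, that of Gpi1 without control replicate 1 or knockout replicate 1, and that of Pfkp with DESeq2, the replicate block and without 3 of the 4 libraries.

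Upstream, 18 of the 19 were tested, of which 6 were higher and 2 lower (median 0.14). Eno3, the muscle enolase, rose by 3.83 ± 0.55 (edgeR adjusted p = 1.81e-09), from 2.60 and 8.29 CPM to 110 and 48.7 CPM, and its window holds the start of Pfn1, the profilin gene, at 377 bp. Its body had a log2 difference of 0.21 and did not pass. Gpi1 rose by 2.52 ± 0.52 (edgeR adjusted p = 3.3e-05), Pfkp by 1.99 ± 0.53 (edgeR adjusted p = 0.00137) and Eno1 by 1.71 ± 0.50 (edgeR adjusted p = 0.00405). Pfkm, the muscle phosphofructokinase, rose by 1.47 ± 0.48 (edgeR adjusted p = 0.0109). Pgam2, the muscle mutase, was lower (-1.40 ± 0.47, edgeR adjusted p = 0.0126), and its call did not hold with pooled totals or receptor gene scaling. None of the 8 upstream calls held without control replicate 1 or without either knockout replicate, and only those of Gpi1 and Eno3 held without control replicate 2; at an unadjusted edgeR p under 0.05, 4 were still higher and 1 lower without control replicate 1. Downstream, 15 were tested and 2 rose (median -0.04). They were Eno2, the neuronal enolase, by 1.76 ± 0.44 (edgeR adjusted p = 0.0123), and Aldoc, the brain aldolase, by 1.77 ± 0.47 (edgeR adjusted p = 0.0175); neither held without control replicate 1.

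Among 20 genes that carry sugar and lactate or control the pathway, 11 rose and 1 fell over the body (median 0.94, 20 tested), 7 rose and 2 fell upstream (median 0.94, 19 tested), and 0 of 16 passed downstream in edgeR, where 1 was higher and 2 lower at an unadjusted p under 0.05 and DESeq2 also called 0. Of all genes, 23.1% were called higher and 15.2% lower over the body, and 24.0% and 14.3% upstream. Over the body the smallest p-values belonged to Pdhb, a subunit of pyruvate dehydrogenase (2.72 ± 0.51, edgeR adjusted p = 2.46e-05), and Egln3, a prolyl hydroxylase that marks HIF for destruction (1.43 ± 0.30, edgeR adjusted p = 0.000154). Next came Slc16a1, the lactate carrier MCT1 (1.59 ± 0.36, edgeR adjusted p = 0.000431), Vhl, the ligase that binds hydroxylated HIF (1.88 ± 0.45, edgeR adjusted p = 0.000834), and Slc2a1, the glucose carrier GLUT1 (1.18 ± 0.31, edgeR adjusted p = 0.00212). Upstream they belonged to Slc16a1 (2.61 ± 0.54, edgeR adjusted p = 3.72e-05), Dlat, another pyruvate dehydrogenase subunit (2.38 ± 0.53, edgeR adjusted p = 0.000114), Pdhb (2.08 ± 0.52, edgeR adjusted p = 0.000666) and Vhl (1.41 ± 0.48, edgeR adjusted p = 0.0136). Pdk4, a kinase that shuts pyruvate dehydrogenase off, fell there by 1.50 ± 0.50 on the log2 scale (edgeR adjusted p = 0.0118). Of the 5 body calls only Pdhb's held without control replicate 1, and none of the 5 upstream calls did.

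Pathways next to glycolysis also had more higher than lower calls, as did all genes tested, of which 24.0% were higher and 14.3% lower upstream, 23.1% and 15.2% over the body, and 10.8% and 2.29% downstream. Of 8 pentose phosphate genes, 7 of 8 tested rose upstream (median 1.82), 5 of 7 over the body (median 1.40) and 1 of 6 downstream (median 0.48). Of 16 citric acid cycle genes, 8 of 14 tested rose upstream (median 1.33), 10 of 16 over the body (median 1.16) and 4 of 15 downstream (median 0.74). Without control replicate 1, 0 genes of either pathway passed upstream in edgeR (3 and 4 at an unadjusted p under 0.05), and over the body 1 of the pentose phosphate and 3 of the citric acid cycle genes did. The gene body median of the 10 glycolysis genes, 2.39, was above both of these medians, but no test of that difference was made. The median CpG ratio over 1001 bp around the outermost start was 0.76 for the pentose phosphate genes tested upstream, 0.75 for the citric acid cycle genes, 0.68 for the 10 glycolysis genes and 0.35 for the other glycolysis enzymes, against 0.57 for all genes tested.

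The genes whose pattern lay nearest to the 10 were found from 12 values, the level in each of 4 libraries and 3 region classes, as the root mean square distance in log2 from the median of the 10 genes over 17250 genes. Eno1 was the nearest named gene, at 0.25. Tardbp followed at 0.29, Ubald2 at 0.37, Trim39 at 0.38 and Sp3os at 0.39. The distances of the 10 genes from their own median ran from 0.59 for Gapdh and Pkm to 2.42 for Hk1, so Hk1 was the least typical of its set by this measure. The levels here were CPM not divided by gene length, and Hk1 is the longest of the 10 genes.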

How the data were processed

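H3K14ac CUT&Tag libraries of 2 control and 2 knockout LSK samples were compared; the fifth library, of HBO1 itself in control cells, was not used here. The authors deposited whole-number read counts per Entrez gene over 3 region classes, per the file headers, with a gene length column in bp; featureCounts and mm10 are named in the submitters' processing notes. Not given in the sources used here were the aligner, the handling of duplicates and a spike-in; copies made by PCR are not independent molecules, so counting error understates the true error. Total counts over the 3 classes ranged from 6466740 to 14811651 per library. Symbols, positions and promoter sequences came from RefSeq tables of GRCm38.p6, which named 25275 of 27179 genes (93.0%).

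Each class was fitted on its own over all genes with edgeR 4.0.16 (quasi-likelihood F-test, filterByExpr with minimum count 10 and minimum total 15, TMM, no covariate) in R 4.3.3, with Benjamini-Hochberg adjustment at 0.05. SE is the size of the log2 fold change divided by the square root of F. Values and plots were made with Python 3.11.15. The fit was tested on simulated counts, where it recovered 76.2% of 4-fold changes (21079 gene bodies) and 5.2% of 2-fold changes (21106), and upstream 57.8% (22727 regions) and 0.0% (22741). Only 193 and 194 of those gene bodies were changed, whereas 8195 were called in these data, so the recovery here can differ. The members and gene lists were chosen with earlier results of these data known. Named were all 10 members, every other glycolysis enzyme past the threshold (a few that passed are not reported here), up to 5 carriers or control genes per class with the smallest p, and the 5 nearest genes by pattern; Spsb2, Ppp4c and other neighbours were added by position. Alternatives were other scalings (library totals, DESeq2 size factors, totals pooled over the classes, 1479 olfactory and vomeronasal receptor genes), DESeq2 1.42.0, edgeR's newer dispersion method, 2 other filters, a replicate block, leaving out each library and, chosen after seeing the data, a crossed block and a GC correction. The motifs and the boundaries of 20 kb and of a CpG ratio of 0.6 (over 1001 bp around the outermost start) were also chosen after seeing the data.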

Additional observations from a re-analysis of the deposited data

How the results depend on the processing

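The 7 gene body calls among the 10 genes moved least: 6 to 9 genes passed over the settings tried, and over the 4 leave-one-out fits. Upstream member calls ranged from 0 to 4 when 1 library was left out, other glycolysis enzymes from 0 to 2 (8 with all libraries) and all genes from 0 to 2303 (8885 with all libraries), with 5770 genes at an unadjusted edgeR p under 0.05 where 0 were called. Over gene bodies the ranges were 1 to 7 for the other enzymes (6) and 1430 to 11313 for all genes (8195), and downstream 1 to 4 for the members (2), 0 to 3 for the other enzymes (2) and 695 to 4933 for all genes (2831). With 1 sample left in a group, that sample is assumed to vary like the others.

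With a mean count of at least 50, calls were 5 other enzymes and 3357 genes upstream, 5426 gene bodies, and downstream 1 member (1 tested), 0 other enzymes (7 tested, 0 at an unadjusted edgeR p under 0.05) and 1089 genes. Receptor gene scaling gave 3 other enzymes and 4690 genes over the body and 1 member downstream. DESeq2's Wald test gave 3 other enzymes over the body and 1 downstream. With no filter 1 other enzyme passed downstream, and with the GC correction 4 did, 2 higher and 2 lower. Receptor gene scaling moved the median log2 difference of all genes from -0.09 to 0.83 upstream and from 0.02 to 0.67 over the body, and split the calls 7187 higher to 38 lower and 4504 to 186, against 5557 to 3328 and 4935 to 3260; library totals gave 4342 to 3986 and 6378 to 989, and pooled totals 7668 to 458 and 5666 to 1360. Hk1 and Hk2 passed over the body with library totals (0.72 and 0.97) and receptor gene scaling (1.05 and 1.31).

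Same-numbered libraries deviated against each other (correlations -0.284 upstream, -0.359 over the body and -0.22 downstream), so they shared no common deviation. This cannot show whether the libraries were made in pairs by replicate number. With the replicate block, calls were 4 other enzymes and 4353 genes upstream, 2 and 3679 over the body, and 1 member downstream. A crossed replicate block, chosen after seeing the data, called 11874 genes upstream, 12047 over the body and 5187 downstream. Downstream it called 6 members and 6 other enzymes, in each list 5 higher and 1 lower. The lower member was Hk1 (-1.21), which was also called lower downstream with the GC correction (-1.56).

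The sign turned for Hk1 upstream with receptor gene scaling (0.06), for Pfkl upstream with library totals (-0.20), when 1 library was left out (range -0.44 to 0.54, at -0.04 without control replicate 2), with the replicate block (-0.03), the crossed replicate block (-0.01) and the GC correction (-0.27), for Pfkl over the body with the GC correction (-0.0028), and for Ldha downstream with receptor gene scaling (0.09) and when 1 library was left out (range -0.47 to 0.05). None of these differences passed the threshold. The median difference in upstream share ranged from -1.22 to 1.24 when 1 library was left out, at -0.839 without control replicate 2. The causes were not tested. Depth limits the short genes most: Tpi1 rests on 11 and 16 control reads over its body.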

Other observations

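Over its body Kat7 rose by a log2 difference of 1.06 ± 0.32 (edgeR adjusted p = 0.00668), while its upstream levels were 45.1 and 40.6 CPM in the controls and 19.3 and 24.4 CPM in the knockouts and did not pass. A gene outside metabolism also lay near the median pattern of the 10 glycolysis genes. This was the second nearest gene, Tardbp, which encodes the RNA-binding protein TDP-43. It lay at a distance of 0.29, whereas the 10 genes themselves lay at 0.59 to 2.42 from that median. Tardbp had log2 differences of 1.89 upstream, 3.24 over the body and 0.37 downstream. Gramd2, whose start lies 461 bp past the end of Pkm, had a log2 difference of -0.74 over its body and did not pass.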
